A study of Oreochromis niloticus with 21 samples.

Results

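Of the 17098 Nile tilapia (Oreochromis niloticus) genes measured, 32 (0.187%) were expressed in both gill and kidney and were low in brain, heart, liver, skeletal muscle and spleen. These genes were chosen on their own expression values. The level of a tissue was log2(mean RPKM + 1), with the mean taken over its 3 libraries. RPKM, the unit of the deposited values, is the number of reads on a gene divided by its length and by a factor of the library. A gene was taken when the lower of its gill and kidney levels lay at least 1.5 above the highest level of the other 5 tissues, when gill and kidney were less than 2 apart, and when both organs had a mean RPKM of 5 or more. The restriction to gill and kidney is therefore a description of how the genes were found, and no test was made of it.

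Gill and kidney are the main organs through which a freshwater teleost keeps its salt and water balance. The gill takes up ions from the water, exchanges gases, and excretes ammonia and acid through specialised epithelial cells called ionocytes. The kidney filters the blood, reclaims ions in its tubules and excretes a dilute urine, and in teleosts it is also a blood-forming tissue. Both organs thus hold transporting epithelia, whereas the other tissues sampled are nervous, muscular, hepatic or lymphoid. The files give genes as Ensembl IDs without symbols, and 0 of these IDs occurred in the RefSeq gene table used here, so the functions of the 32 genes, and the marker genes of the labelled tissues, could not be looked up.

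Fish aged 6 months were held for 12 h at 28, 18 or 10 °C, and RNA from each of the 7 tissues gave 1 library per temperature, 21 in all. No genotype, strain or sex is named in the labels, nor how many fish stood behind a library or whether tissues came from the same fish. The series compares low-temperature transcriptomes, and the questions that can be asked of the shared genes are whether their expression in gill and kidney moved with temperature, and whether it did so alike in the 2 organs. There were no replicates at any tissue and temperature, so SDs below are over the 3 temperatures of a tissue.

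Reads on genes numbered 331738 in brain at 10 °C to 3664592 in muscle at 18 °C, and 557584 to 3041530 in the 6 gill and kidney libraries. Gill at 28 °C stood somewhat apart from the other gill libraries, with Spearman's rho over all genes of 0.833 to the 18 °C library and 0.837 to the 10 °C library, against 0.915 between the cold libraries. In kidney the 3 pairs had 0.848 to 0.888. In brain the 10 °C library had 0.733 and 0.751 to the others, which had 0.93 between them. For heart at 18 °C the values were 0.788 and 0.775 against 0.885, and for liver at 28 °C they were 0.713 and 0.723 against 0.796. A single library was also the least alike in kidney, muscle and spleen, but by smaller margins. Where the fitted change for which a gene is named below moves by over 1.5 times when 1 library is left out, that is shown. The change is given without that library, or the differences between pairs of libraries are given.

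The shared genes were moderately expressed. Their mean RPKM ran from 5.41 to 182 in gill, with a median of 11.7, and from 6.13 to 86.4 in kidney, with a median of 13.5. In 16 of them the lower of the 2 organs had a mean under 10 RPKM, in 10 it had 10 to 20, and in 6 it had at least 20. All 32 were detected in each of the 6 gill and kidney libraries, with 10 to 5549 reads and a median of 140, and only 5 of these 192 values rested on fewer than 20 reads. Together they took 0.543% to 1.35% of the reads in gill and kidney libraries and 0.00298% to 0.115% in the other 15. Levels in bulk tissue cannot tell fewer expressing cells from less RNA in each cell.

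**Figure D1:**
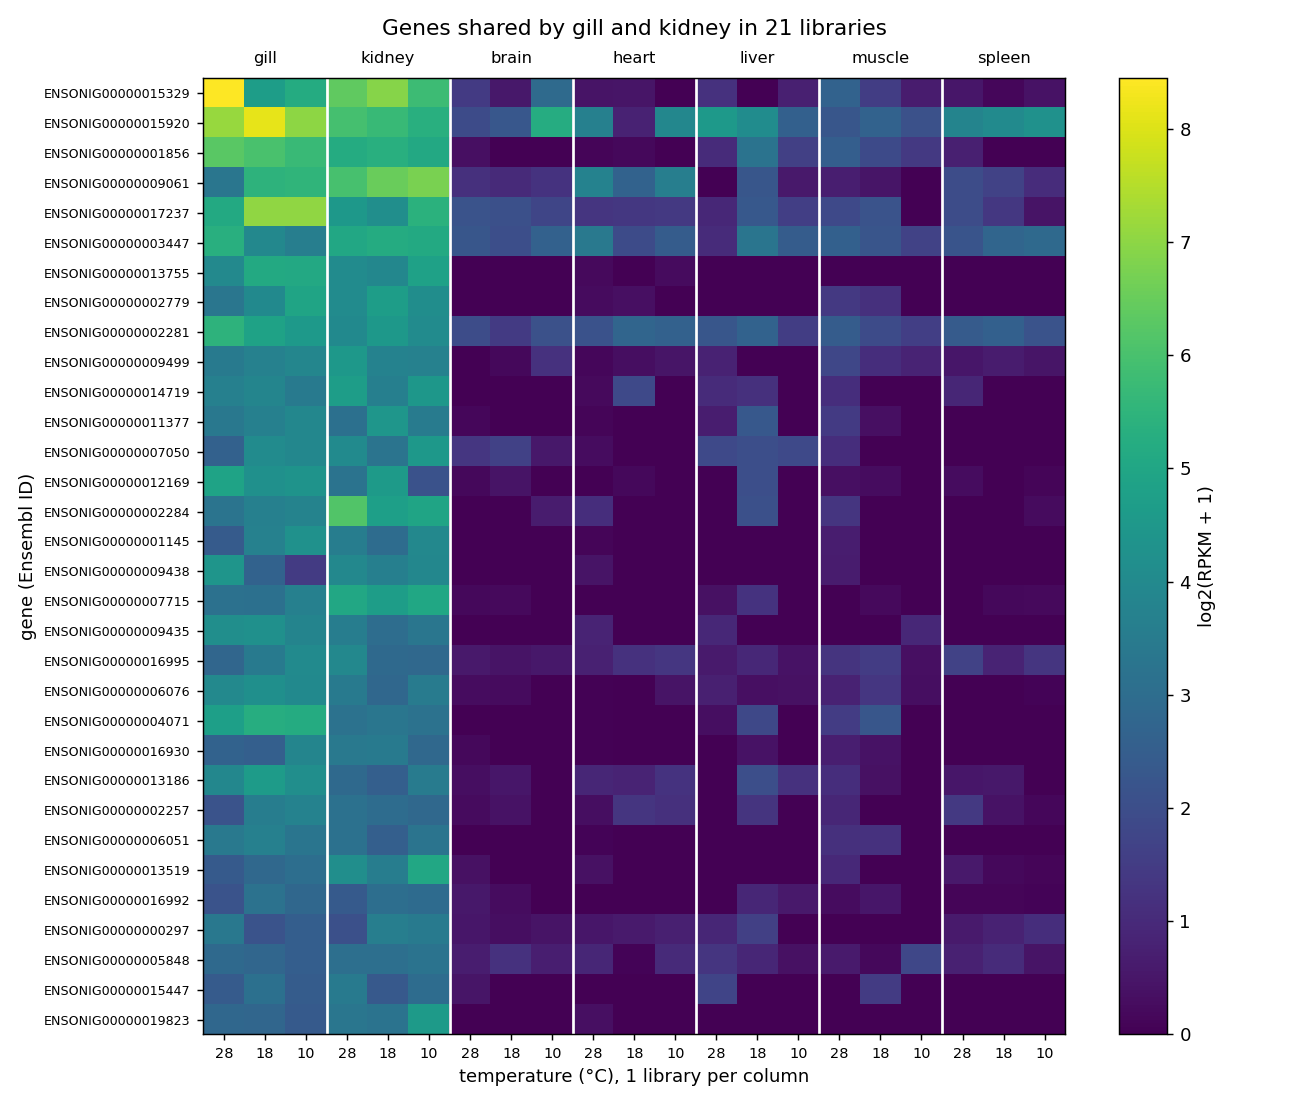
Expression of the 32 shared genes, as log2(RPKM + 1) by colour, in each of the 21 libraries (columns, grouped by tissue, temperature in °C). Genes run from the highest to the lowest level in the lower of gill and kidney. The 6 columns on the left are gill and kidney, and in 31 of 32 genes all 6 lie above all 15 columns on the right. The rule favours this separation, and its share over all genes was not counted.

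The gene with the highest level in its lower organ was ENSONIG00000015329. Its RPKM in gill was 347 at 28 °C, 25.1 at 18 °C and 35.5 at 10 °C, and in kidney 81.6, 118 and 54.8. Elsewhere it reached at most 6.65, in brain at 10 °C. The 2 organs overlapped, because a single gill library held the highest value and the other gill libraries the lowest. It also had the largest gap to the other tissues, 4.45 on the log2 scale, against a median gap of 2.39 over the 32.

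ENSONIG00000015920 was the most abundant of the group in gill, with an RPKM of 141, 278 and 127 at 28, 18 and 10 °C, and had 61.4, 50.8 and 39.3 in kidney. All 3 gill libraries lay above all 3 kidney libraries. It was also the gene least confined to the organs, with 13.1 to 18.2 in spleen, 4.95 to 22.8 in liver and 36.4 in brain at 10 °C, so that its lowest kidney value was barely above that brain library. With a gap of 1.63 it was the gene nearest to the threshold of 1.5 from inside. The nearest from outside was ENSONIG00000012856, with a gap of 1.49, a mean RPKM of 51.1 in gill, 24.7 in kidney and 8.17 in liver.

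ENSONIG00000001856 had an RPKM of 77.4, 63.3 and 51.3 in gill at 28, 18 and 10 °C. In kidney it had 36.0, 39.3 and 33.5, below every gill library. Outside the organs it was highest in liver at 18 °C, with 8.32 RPKM from 13 reads. ENSONIG00000009061 was instead a kidney-leaning gene, with 62.1, 91.4 and 106 in kidney and 8.99, 42.8 and 45 in gill. It was the only 1 of the 32 whose gill and kidney libraries were not all above the rest, since heart had 12.3 RPKM at 28 °C, more than gill at that temperature.

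The rule required gill and kidney levels less than 2 apart, so close levels in the 2 organs are in part set by it. The gill level was the higher in 15 genes and the kidney level in 17, and 23 genes had the 2 levels within 1 on the log2 scale. In 18 genes the gill and kidney libraries overlapped. In 8 all gill libraries were above all kidney libraries, and in 6 all kidney libraries were above all gill libraries. These counts were not made over all genes, so whether they are particular to the group is not known. The largest leaning towards gill still allowed by the rule was that of ENSONIG00000004071, with a mean of 33.0 ± 6.14 RPKM (SD over 3 temperatures, n = 3) in gill and 8.36 ± 0.489 in kidney, a distance of 1.86. ENSONIG00000002284 leaned furthest towards kidney, with 41.8 ± 24.2 in kidney and 11 ± 2.24 in gill, a distance of 1.83. A further 5 genes met every other condition but had gill and kidney at least 2 apart, 3 with gill and 2 with kidney higher; the nearest, ENSONIG00000004507, had means of 71.0 in gill and 14.7 in kidney.

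The rule required low levels in the other 5 tissues, but not every gene was near the limit of detection there. ENSONIG00000015920 had 2549 reads in those 15 libraries and ENSONIG00000003447 had 536. The highest mean among these tissues was under 1 RPKM in 16 genes, 1 to 5 in 13, and at least 5 in 3. No read of a gene was found in any of the 3 spleen libraries for 12 genes, in brain for 9, in liver for 7, in heart for 3 and in muscle for 3. The rule favours such absences, and their shares over all genes were not counted. ENSONIG00000013755, for example, had 858 reads in gill, 713 in kidney and 4 in the other 15 libraries together. The tissue that came next after gill and kidney was muscle in 11 genes, liver in 10, heart in 7, brain in 2 and spleen in 2. The values in these tissues were uneven among the libraries of a tissue. The median RPKM of the 32 genes in liver was 0.403 at 28 °C, 1.09 at 18 °C and 0 at 10 °C, and in muscle it was 1.06, 0.303 and 0. Such values are coarse where the factor of the library is low. For a gene of the group's median length, 1 read was worth 0.387 RPKM in the 18 °C liver library. The worth was 0.357 in the 28 °C muscle library, but 0.0465 in kidney at 10 °C. Depth alone did not set it. With 905142 reads on genes, the 28 °C kidney library had 0.118, although the 28 °C muscle library was about as deep, with 887036.

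The gene lengths implied by the RPKM values ran from 903 to 6581 bp over the group, with a median of 2912 bp. The median was 2646 bp over all genes and 2356 bp over the 2071 genes whose mean RPKM reached 5 in gill and in kidney. The group thus covered the ordinary range of lengths.

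The choice of genes was then made at each temperature alone, from 7 libraries, and read in the libraries of the other temperatures, which had not been used. At 28 °C alone the same rule gave 29 genes, of which 20 (69.0% of that list and 62.5% of the 32) were in the group; at 18 °C it gave 27, with 18 in the group, and at 10 °C it gave 37, with 22 in the group. Of the 29 genes chosen at 28 °C, 23 also reached a mean of 5 RPKM in gill and kidney over the cold libraries, and in 21 of these 23 gill and kidney both lay above the other 5 tissues there. The same order was found in 11.5% of all 1902 genes at that RPKM. With the same limit of 5 RPKM in the held-out libraries, genes chosen at 18 °C kept it at 28 and 10 °C in 22 of 23, against 10.3% of all such genes, and genes chosen at 10 °C kept it at 28 and 18 °C in 29 of 29, against 11.3%. Over all chosen genes, without that limit, the order was kept in 24 of 29, 25 of 27 and 34 of 37. The limit is itself a condition of the rule, and no share of all genes was counted without it. The full gap of 1.5 was met in 17 of 29, 17 of 27 and 20 of 37 of all chosen genes. Under the limit of 5 RPKM it was met in 16 of 23, 16 of 23 and 20 of 29, against 1.84%, 1.79% and 1.69% of all such genes. For most genes of each list the order was thus seen again in libraries that had no part in choosing that list. Each list held only part of the 32 genes, and the 32 themselves were chosen on all 21 libraries. Whether the libraries come from other fish is not stated.

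A core of 7 genes met the rule at each of the 3 temperatures separately, 17 at 2 of them, 5 at 1 and 3 at none. Among these 7 were ENSONIG00000001856 and ENSONIG00000013755, whose values are given above and below. The genes that met it at no single temperature were ENSONIG00000000297, ENSONIG00000015447 and ENSONIG00000015920, named here after their values were seen; they entered through their means.

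The response to cooling was tested with limma, on log2(RPKM + 1), in a model that gave each tissue its own straight line on temperature; changes are given over the 18 °C from 28 to 10 °C. All 32 genes were among the 15312 tested. Temperature within a tissue was not used to choose the genes. With 1 library per tissue and temperature, each change is judged against the departure from a line, pooled over 7 tissues. Without replicates, differences between fish cannot be told from that departure or from temperature. The p-values therefore give no separate measure of the spread between fish.

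In gill, 1 of the 32 genes passed the test (adjusted p, Benjamini-Hochberg over all genes tested), and it was lower in the cold; over all genes 0.0849% passed, 0.0588% higher and 0.0261% lower. The gene was ENSONIG00000009438. Its RPKM in gill was 20.2 at 28 °C, from 167 reads, 5.33 at 18 °C, from 22 reads, and 1.79 at 10 °C, from 19 reads. In kidney it was 14.4, 11.6 and 14.0, so that gill was the higher at 28 °C and was below kidney at 10 °C by a gill minus kidney difference of -2.42 on the log2 scale. Elsewhere the gene had 6 reads in all. Its mean RPKM in gill, 9.11, was raised by the 28 °C library. Taken at single temperatures, it met the rule at 28 and at 18 °C but not at 10 °C. The 28 °C gill value thus entered both the choice of the gene and its fitted fall. In gill it fell by 2.93 (log2, SE 0.40, limma adjusted p = 0.0205), in temperature order. Its fitted change in kidney was -0.06 (SE 0.40), with log2 differences of -0.29 from 28 to 18 °C and 0.25 from 18 to 10 °C. The sign of that kidney change therefore rested on the libraries kept. Both SEs are pooled over 7 tissues, and the rule chose the gene to be low in 5 of them. The median SE of the group in gill was 0.69. The difference between the organs was -2.87 (SE 0.56) and did not pass (limma adjusted p = 0.230).

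This call rested on both ends of the range. Without gill at 28 °C the change was -2.66 and did not pass (limma adjusted p = 1.00), and without gill at 10 °C it was -3.14 (limma adjusted p = 0.154). It was also lost in a fit to the 6 gill and kidney libraries alone (limma adjusted p = 0.582) and with limma-voom on the recovered reads (adjusted p = 0.606); over all alternatives the adjusted p ran from 0.002 to 1.00.

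**Figure D2:**
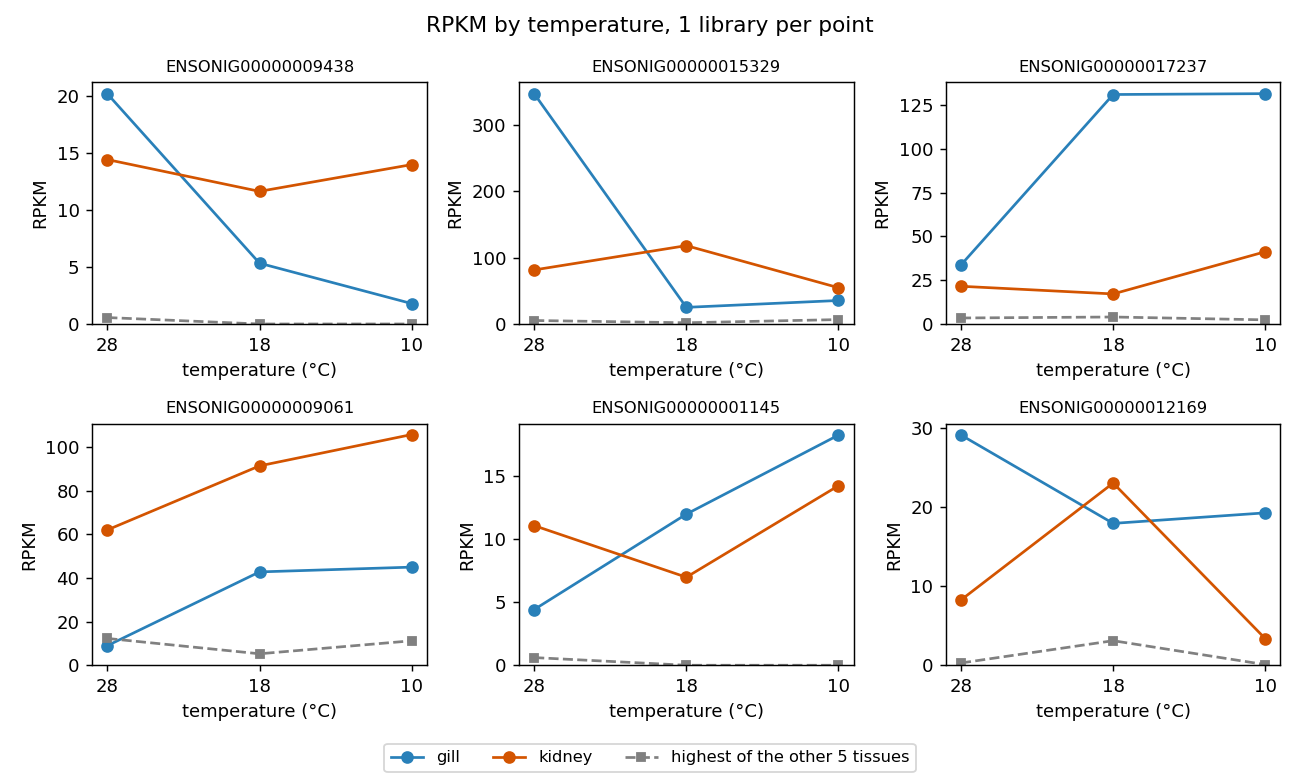
RPKM of 6 of the shared genes at 28, 18 and 10 °C in gill (blue) and kidney (orange), with the highest of the other 5 tissues in grey; each point is 1 library. ENSONIG00000009438 drops step by step in gill from 20.2 to 1.79 and stays at 11.6 to 14.4 in kidney, while ENSONIG00000015329 and ENSONIG00000017237 differ in gill between 28 °C and both cold libraries.

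Of the other 31 genes, none passed in gill. At an unadjusted p under 0.05 there were 10 of 32, 7 higher and 3 lower in the cold, against 6.90% of the 2071 genes whose mean RPKM reached 5 in both organs. The SE of the group had a median of 0.69 on the log2 scale, against 0.82 for those 2071 genes. It is pooled over 7 tissues, and the rule chose the group to be low in 5 of them. With limma-voom the count at an unadjusted p under 0.05 was 6, and with limma it was 2 without gill at 28 °C and 6 without gill at 10 °C. The median change of the group was 0.35, with 19 estimates above 0 and 13 below, and the median of all genes tested was -0.02. Without gill at 28 °C the group's median was -0.11, with 15 above 0 and 17 below.

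Genes higher in cold gill were led, by p, by ENSONIG00000001145 and ENSONIG00000002779. ENSONIG00000001145 had an RPKM of 4.41, 12.0 and 18.2 in gill at 28, 18 and 10 °C and 11.1, 6.97 and 14.2 in kidney. Its change in gill, 1.85 with an SE of 0.48, missed the threshold (limma adjusted p = 0.388; over its alternatives 0.0647 to 1.00). ENSONIG00000002779 had 9.02, 15.2 and 29.7 in gill and 15.8, 24.9 and 16.8 in kidney. Its change in gill was 1.60 (SE 0.52, limma adjusted p = 0.567; over its alternatives 0.0788 to 1.00). In both, the gill values followed the order of temperature and the kidney values did not.

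In kidney, none of the 32 genes passed (limma, smallest adjusted p = 1.00), where 0.0457% of all genes did, 0.0131% higher and 0.0327% lower, and 1 had an unadjusted p under 0.05, against 3.76% of all genes and 2.03% of the 2071 expressed in both organs. That count was 5 with a pseudocount of 5 and 4 without kidney at 28 °C; limma-voom called 0 and had 0 at that level. The group's median change was 0.03, with 18 estimates above 0 and 14 below. That median was 0.37 without kidney at 28 °C and -0.40 without kidney at 10 °C. ENSONIG00000019823, with the smallest p, had an RPKM of 9.0, 8.29 and 23.4 in kidney at 28, 18 and 10 °C and 6.06, 5.91 and 4.27 in gill. Its change in kidney was 1.23 (SE 0.45); without the 10 °C library it was -0.19 and without the 28 °C library 3.14. ENSONIG00000000297 had 3.14, 11.1 and 10.1 in kidney, from 20, 49 and 163 reads, and 9.32, 3.45 and 4.74 in gill, an opposite order in the 2 organs. Its change in kidney was 1.47 (SE 0.69). The log2 differences in kidney were 1.55 from 28 to 18 °C and -0.13 from 18 to 10 °C. The sign of its kidney change therefore rested on the 28 °C library.

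**Figure D3:**
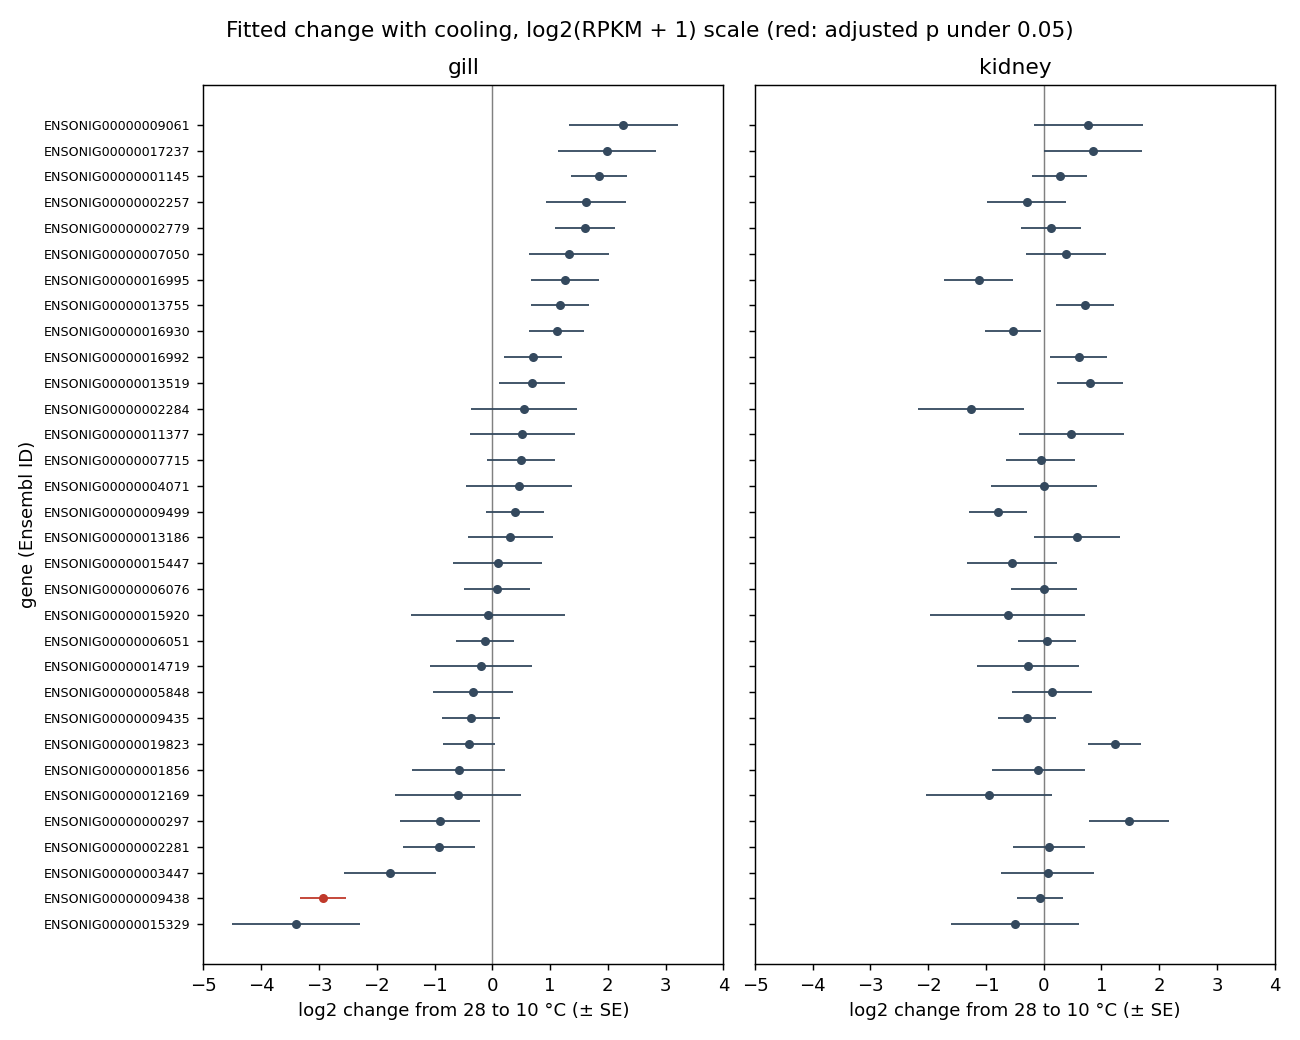
Fitted change from 28 to 10 °C on the log2(RPKM + 1) scale, with its SE, for each of the 32 shared genes in gill (left) and kidney (right), in the same order of genes. Estimates spread from -3.40 to 2.27 in gill and from -1.25 to 1.47 in kidney; only ENSONIG00000009438 in gill, in red, passed the test.

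Taking gill and kidney together, the mean of their changes passed for 0 of 32 genes (limma, smallest adjusted p = 0.175; 0.0196% of all genes passed). At an unadjusted p under 0.05 there were 7, against 5.22% of all genes and 5.17% of the 2071 expressed in both organs, and 2 without gill at 28 °C or without kidney at 10 °C. limma-voom called 0, with 4 at that level. The group's median SE was 0.49, against 0.58 for the 2071 genes, again pooled over 7 tissues. The smallest p was that of ENSONIG00000009438, at -1.50 (SE 0.28). It did pass with a pseudocount of 5 in place of 1 (limma adjusted p = 0.0246). ENSONIG00000013755 had 14.6, 34.0 and 33.3 RPKM in gill and 15.8, 14.2 and 27.5 in kidney at 28, 18 and 10 °C, so that gill was higher in both cold libraries and kidney at 10 °C only. Its mean change was 0.95 (SE 0.36, limma adjusted p = 0.884). It was 0.33 without gill at 28 °C, 0.45 without kidney at 10 °C and 1.61 without kidney at 28 °C.

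The difference in change between gill and kidney passed for 0 of 32 genes (limma, smallest adjusted p = 0.230; 0.0196% of all genes passed, 0.0131% in the positive and 0.00653% in the negative direction). The group's median SE was 0.98, against 1.16 for the 2071 genes expressed in both organs. At an unadjusted p under 0.05 there were 6, against 4.12% of all genes and 2.99% of those 2071. That count was 12 with a pseudocount of 5, 2 without gill at 28 °C, 3 without gill at 10 °C and 4 without kidney at 10 °C; limma-voom called 0 and had 2. The widest positive difference was that of ENSONIG00000016995, at 2.38 (SE 0.84, limma adjusted p = 1.00), and 1.37 without kidney at 28 °C. Its RPKM was 5.92, 10.2 and 15.6 in gill but 14.3, 6.42 and 6.17 in kidney at 28, 18 and 10 °C. ENSONIG00000002257 had a difference of 1.92 (SE 0.97), with 3.45, 11 and 12.3 in gill and 7.94, 6.88 and 6.30 in kidney. It was 0.62 without gill at 28 °C and 2.88 without gill at 10 °C. The widest negative difference was that of ENSONIG00000015329, at -2.89 (SE 1.57), which without gill at 28 °C was 1.59, so its sign rested on that library. It was -6.22 without gill at 10 °C, -0.93 without kidney at 28 °C and -4.35 without kidney at 10 °C.

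Set against the mean of the other 5 tissues, the mean change of gill and kidney again passed for 0 of 32 genes (limma, smallest adjusted p = 0.579; 0% of all genes passed). The count at an unadjusted p under 0.05 was 7, against 6.29% of all genes and 6.90% of the 2071 expressed in both organs, and 2 without gill at 28 °C or without kidney at 10 °C; limma-voom called 0 and had 3. The group's median SE was 0.58, against 0.69 for those 2071 genes. The smallest p was again that of ENSONIG00000009438, at -1.27 (SE 0.33). The largest positive difference was that of ENSONIG00000017237, at 1.99 (SE 0.71, limma adjusted p = 0.763), which was 1.00 without gill at 28 °C and 1.29 without kidney at 10 °C. Its RPKM was 33.8, 131 and 132 in gill and 21.5, 17.2 and 41.3 in kidney at 28, 18 and 10 °C, and at most 3.99 elsewhere.

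When temperature was taken as 3 levels common to the 7 tissues, 0 of 32 genes passed at 10 against 28 °C (limma, smallest adjusted p = 0.667) and 0 at 18 against 28 °C (limma, smallest adjusted p = 1.00), and 0% of all genes passed in either. At an unadjusted p under 0.05 there were 0 in both, against 7.31% and 4.17% of all genes; limma-voom called 0 in both and had 2 and 3 at that level. The rule chose these genes to be low in 5 of the 7 tissues, so this comparison mostly weighs low values. The group's medians were -0.09 and -0.03, against -0.07 and -0.03 for all genes.

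Single libraries were also set side by side. A gene counted as 2-fold different when its log2(RPKM + 1) in the pair lay 1 or more apart and the higher RPKM was 5 or more. No test is possible between 2 libraries. In gill, 12 of the 31 shared genes that could be counted differed between 10 and 28 °C, 9 of them higher in the cold and 3 lower. Of all 4482 genes counted, 36.6% differed, 16.2% higher and 20.4% lower. Between 18 and 28 °C, 11 of 32 differed, 7 higher and 4 lower, against 36.1% of all genes, 17% higher and 19.1% lower. Both comparisons use the same 28 °C library. Between the cold libraries, 3 of 31 differed, 1 higher and 2 lower at 10 °C, against 7.24% of all genes, 2.34% higher and 4.9% lower. The share of the group was thus close to that of all genes in each pair of gill libraries.

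On the log2(RPKM + 1) scale, the 2 genes furthest down at 10 °C in gill were ENSONIG00000015329, which was 9.80-fold lower by RPKM than at 28 °C, and ENSONIG00000009438, which was 11.3-fold lower. The furthest up on that scale were ENSONIG00000009061, by 2.20, and ENSONIG00000017237, by 1.93; by the ratio of RPKM, ENSONIG00000001145 at 4.13-fold lay between their 5.01-fold and 3.90-fold. In ENSONIG00000015329, ENSONIG00000009061 and ENSONIG00000017237 the 18 and 10 °C libraries were close to each other and both far from 28 °C, while ENSONIG00000009438 differed at each step. The 28 °C gill library was below both cold libraries in 17 of 32 genes and above both in 9, against 41% and 43.4% of the 2071 genes expressed in both organs. Between the cold gill libraries, ENSONIG00000016930 was higher at 10 °C, with 13.2 against 4.93 RPKM, and ENSONIG00000015920 lower, with 127 against 278.

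In kidney, 5 of 32 genes differed 2-fold between 10 and 28 °C, 2 higher and 3 lower, against 21.8% of all genes, 8.07% higher and 13.7% lower. There were 7 between 18 and 28 °C, 3 higher and 4 lower, against 24.8%, 7.54% higher and 17.2% lower. Both use the 28 °C kidney library. Between 10 and 18 °C there were 6, 4 higher and 2 lower, against 26.7%, 15.8% higher and 10.9% lower. The largest difference was in ENSONIG00000012169, whose kidney RPKM was 8.25 at 28 °C, 23.0 at 18 °C and 3.35 at 10 °C, from 87, 168 and 90 reads. Its gill values, 29.1, 17.9 and 19.3, differed by less than 2-fold. ENSONIG00000002284 had 69.6 RPKM in kidney at 28 °C against 26.0 and 29.7 in the cold, with 8.52 to 12.8 in gill. ENSONIG00000013519 went from 11 RPKM at 18 °C to 32.2 at 10 °C in kidney, with 17.1 at 28 °C.

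**Figure D4:**
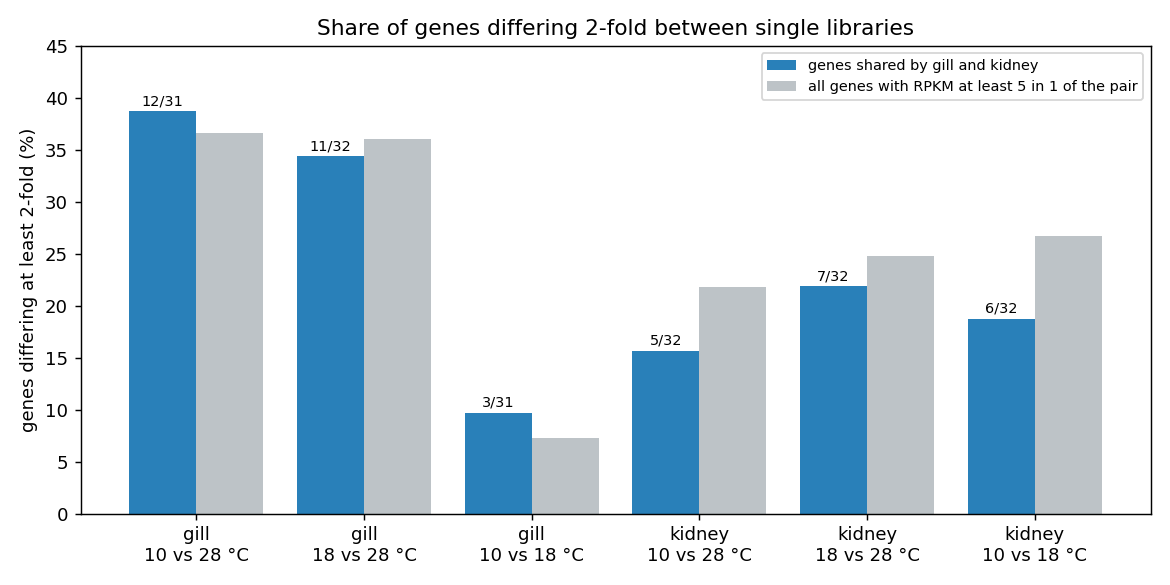
Share of genes differing at least 2-fold between 2 single libraries, for the shared genes (blue, with the count over the number that could be counted) and for all genes with an RPKM of at least 5 in 1 of the pair (grey). In gill the share is 38.7% for 10 against 28 °C beside 36.6% of all genes, and in kidney the blue bars, at 15.6% to 21.9%, lie below the grey ones, at 21.8% to 26.7%.

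Counting error was small beside most of these differences. Of the 44 differences counted in the 6 pairs, 43 had 95% exact Poisson intervals of the reads that did not overlap. All 44 had already been chosen as 2-fold apart, which favours this. The share over all genes was not counted, so nothing particular to the group follows. The exception was ENSONIG00000015447 in kidney at 18 against 28 °C, with 10 and 36 reads. These intervals cover counting error only and not differences between fish or preparations.

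The directions of the single genes were then compared between the organs. At 10 against 28 °C, 19 of 32 genes had the same sign of difference in gill and kidney, against 52.4% of the 2071 genes expressed in both; at 18 against 28 °C it was 8 of 32, against 43.5%. Both counts use the 28 °C libraries. Between the cold libraries it was 12 of 32, against 46.7%. None of the 32 genes differed 2-fold in the same direction in both organs in any of the 3 pairs of temperatures; of the 2071 genes, 4.35% did at 10 against 28 °C, 2.41% at 18 against 28 °C and 0.773% at 10 against 18 °C. The pairs held 1 gene that differed 2-fold in opposite directions at 10 against 28 °C, ENSONIG00000016995, and 1 at 18 against 28 °C, ENSONIG00000000297, against 2.03% and 4.49% of the 2071 genes. Over all 6 pairs, 10 of the 32 genes differed 2-fold nowhere, 10 in gill alone, 7 in kidney alone and 5 in both, against 42.4%, 21.5%, 18.3% and 17.7% of the 2071 genes; whether these counts differ between the organs was not tested.

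The median balance between the organs lay on the kidney side at 28 °C and on the gill side at 18 and 10 °C. The median difference of gill minus kidney over the 32 genes was -0.16 on the log2 scale at 28 °C, 0.15 at 18 °C and 0.22 at 10 °C, with gill the higher in 15, 17 and 18 genes. For the 2071 genes expressed in both organs the medians were -0.08, -0.11 and -0.13. The group's median fitted difference in change, gill minus kidney, was 0.22. It was -0.60 without gill at 28 °C, -0.44 without kidney at 28 °C and 0.93 without kidney at 10 °C, so its sign rested on the libraries kept. Single genes changed sides, such as ENSONIG00000015329, which was higher in gill by 2.08 at 28 °C and higher in kidney at 18 °C, with a gill minus kidney difference of -2.19.

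Variation over temperature within an organ was ordinary for the group. The coefficient of variation over the 3 libraries had a median of 34.0% in gill and 30.6% in kidney, against 32.0% and 31.6% for the 2071 genes. The range was 9.86% to 135% in gill and 4.66% to 88.7% in kidney. ENSONIG00000003447 joined a steady kidney level, with 32.7, 35.9 and 34.1 RPKM at 28, 18 and 10 °C, to a variable gill level, with 39.4, 14.3 and 11.1. ENSONIG00000012169 was the reverse, with a coefficient of variation of 88.7% in kidney and 27.6% in gill. Both were named after their values were seen.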

How the data were processed

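RNA-seq libraries of 21 tissue and temperature combinations were used. The deposited files hold 1 RPKM value per gene and library, computed by the authors; per the submitters' processing notes TopHat, Bowtie and HTSeq were used. Versions, build and annotation: not given in the sources used here. Total RNA was extracted with Trizol and libraries were made with an Illumina TruSeq kit, per the labels' protocols; TruSeq preparations and the counting were not stated to use strand, so overlapping antisense genes cannot be told apart.

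The RPKM values were whole reads over length and a library factor. These were solved for all 17098 genes, with deposited values returned within a relative error of 1e-12, which gave the depths and the reads behind each value. The library factor was not in proportion to the reads on genes. It was 4.49e+06 in gill at 28 °C, with 1136747 reads, and 1.06e+06 in liver at 28 °C, with 1507953 reads. Levels compared between tissues rest on these factors. Intervals cover counting error only. The main test was limma 3.58.1 in R 4.3.3 on log2(RPKM + 1), with a mean-variance trend, restricted to genes reaching 1 RPKM in 3 or more libraries; p-values were two-sided, adjusted by Benjamini-Hochberg and called under 0.05. A fold change on this scale understates changes of low genes. The fits were also run on simulated data with known changes. Those data had independent noise and no library that stands apart, so they check the calculation and not the p-values given here. The alternatives were a pseudocount of 5, other filters, median-of-ratios and upper-quartile scaling, limma-voom on recovered reads, leaving out libraries, and fits to subsets of tissues.

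The genes, lists and tests were chosen with earlier results of these data known. The genes named were the 4 with the highest level, at most 2 per direction in each comparison (called, or with the smallest p, or for single libraries with the largest change), and those nearest the thresholds. Lists of ion transport, epithelial and cell type genes hold gene symbols, which no ID could be paired with, so they went unused.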

Additional observations from a re-analysis of the deposited data

How the results depend on the processing

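With 1 library per tissue and temperature, no setting here tests spread between fish. The 1 shared gene called for its slope in gill became 0 with limma-voom on the recovered reads, with the 6 gill and kidney libraries alone, with a stricter filter (every tissue at 1 RPKM or more at some temperature), which left 4 of the 32 genes to test, and without the 4 libraries that stood furthest apart (the 28 °C gill and liver libraries, 10 °C brain and 18 °C heart); the last was chosen after seeing the data and leaves gill with 2 libraries. Leaving out each gill and kidney library gave 0 to 1, and 0 without gill at 28 °C and without gill at 10 °C; it called 0 in the other tests. A pseudocount of 5 made the count 1 for the mean of gill and kidney and 1 for gill minus kidney, in both cases ENSONIG00000009438. The same pseudocount lowered the 2-fold counts to 6 for gill at 18 against 28 °C, 1 for gill at 10 against 18 °C, 2 for kidney at 10 against 28 °C and 3 for kidney at 18 against 28 °C; its larger constant shrinks differences of low genes by construction. The other counts of called genes, of 2-fold genes and of genes meeting the rule stayed within 1.5 times. Counts at an unadjusted p under 0.05 moved more. Over the alternatives with all 32 genes tested they ran from 2 to 13 in gill and 0 to 5 in kidney. They ran from 2 to 9 for their mean, 2 to 12 for gill minus kidney and 2 to 8 against the other 5 tissues. The stricter filter, with 4 genes tested, gave 2, 0, 1, 0 and 1 in these tests. Over all genes tested, limma-voom called 2 in gill, against 13 with limma on RPKM, and 0 in the other 6 tests. Median-of-ratios scaling, with the same rule, kept 29 of the 32 genes. No paired analysis was possible because each tissue and temperature has 1 library and the labels give no replicate numbers.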
